A study of Arabidopsis thaliana with 2 samples.

Results

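AFB2, ACS2 and JAZ8 are Arabidopsis genes that act in the auxin, ethylene and jasmonate pathways, and each was assigned 1 chromatin peak of the transcription factor ERF115. Their 3 peaks, out of 612 in all, were taken from the deposited list by locus: AT3G26810 for AFB2, AT1G01480 for ACS2 and AT1G30135 for JAZ8. The genes were chosen by the presence of a peak in this list, with the peak scores known, so their scores and labels are given as a description, with no test. The study compared cells carrying 35S::ERF115-HBH, in which the constitutive 35S promoter drives ERF115 fused to an affinity tag, with a mock purification from wild-type cells. Both came from PSB-D, a Landsberg erecta suspension culture grown in the dark in medium with the synthetic auxin NAA and the cytokinin kinetin. Cells were fixed with 0.75% formaldehyde for 10 minutes, 2 days after subculture, and each group had 1 library. There are therefore no replicates and no error on any peak score. A suspension culture under a constitutive promoter shows where the tagged protein was found in those cells, not in the root quiescent centre named in the series title.

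Auxin is sensed by F-box proteins of the TIR1/AFB family, which mark Aux/IAA repressors for degradation and so free ARF transcription factors. Jasmonate works in a parallel way through the F-box protein COI1 and the JAZ repressors, which hold back MYC transcription factors. Ethylene is a gas made from S-adenosylmethionine by ACC synthases and ACC oxidases, and is sensed by receptors that act through CTR1 and EIN2 on the transcription factor EIN3. AP2/ERF proteins such as ERF115 belong to a family that includes effectors of ethylene and jasmonate responses.

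The auxin receptor gene AFB2 had the highest score of the 3, whereas ACS2 and JAZ8 had scores close to each other, near the upper quartile of the list. The score is the authors' value per peak from the MACS peak caller, minus 10 times the log10 of the peak's p-value against its control, so differences in score are differences on a log scale. AFB2 scored 440.95, JAZ8 117.75 and ACS2 110.85, beside a median of 78.9 (quartiles 60.6 and 113.6) and a range of 50.01 to 537.85 over all 612 peaks. These scores correspond to p-values in the authors' peak calling of 8.04e-45, 1.68e-12 and 8.22e-12. AFB2 ranked 3, JAZ8 145 and ACS2 163. The score of AFB2 exceeded the median by 362.01 units, that of JAZ8 by 38.81 and that of ACS2 by 31.91. JAZ8 stood just above the upper quartile and ACS2 just below it.

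**Figure D1:**
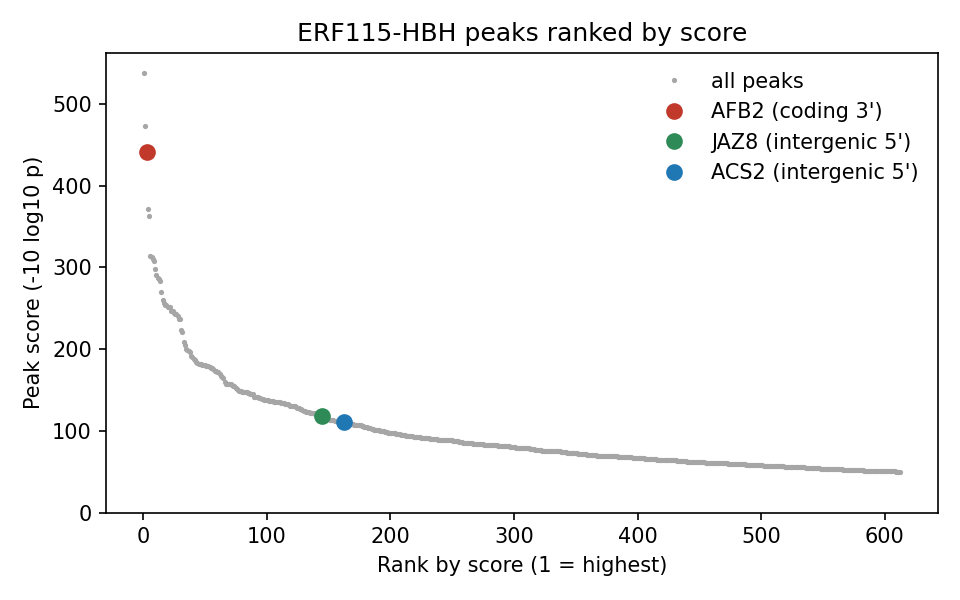
Score of each of the 612 ERF115-HBH peaks (vertical axis, minus 10 log10 of the authors' p-value) against its rank (horizontal axis), with 1 grey point per peak and coloured points for AFB2, JAZ8 and ACS2. AFB2 sits on the steep left end at 440.95, and JAZ8 and ACS2 sit on the flat shoulder at 117.75 and 110.85.

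AFB2 encodes a receptor of the TIR1/AFB family, the subunit of an SCF ubiquitin ligase that binds auxin. Its peak lay on chromosome 3 of the TAIR10 build, at chr3:9869684-9871162, and the authors labelled it coding 3'. Of the 64 peaks with that label it had the highest score, 68.96 units above the next, AT3G52470 (score 371.99). It was also first of the 172 peaks on chromosome 3. The reference position that the authors give for the peak, 9870444, fell 21.0 bp from its midpoint, where the median over all peaks was 208.75 bp. By its label the AFB2 peak differs from those of ACS2 and JAZ8, which were assigned to the intergenic side 5' of the gene. The rule behind the labels is not stated, and they were not checked against gene strand.

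The AFB2 peak was narrower than the median peak. It was 1479 bp wide, against a median of 1893.5 bp over all peaks and 2387 bp over coding 3' peaks. The peaks next to it in rank were wider, at 4799 bp for AT2G44820 (score 473.14, intergenic 3') and 7941 bp for AT3G52470. Such a width was not unusual among high scores: of the other 19 peaks among the 20 with the highest scores, 8 were narrower than that of AFB2 and 11 wider, from 1165 to 7941 bp. A score belongs to a peak as a whole, so dividing it by width favours narrow peaks and does not give a density of binding. Divided by width, the AFB2 score came to 298 units per kb, the highest of all 612 peaks, beside a median of 41.1. The next in that order were the peaks of WRKY26 and WRKY60, genes of a transcription factor family known in stress responses, with 247 and 242 units per kb, named after their values were seen.

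**Figure D2:**
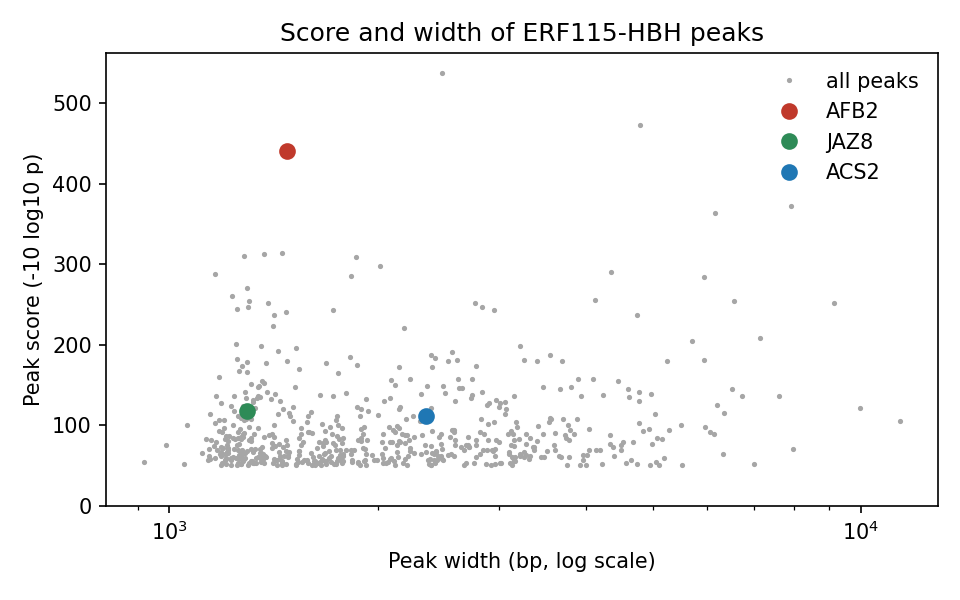
Score of each peak (vertical axis, minus 10 log10 of the authors' p-value) against its width in bp (horizontal axis, log scale), with grey points for all 612 peaks. AFB2 combines a score of 440.95 with a width of 1479 bp, JAZ8 is among the narrower peaks at 1294 bp, and ACS2 is wider at 2354 bp.

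ACS2, listed by the authors as AT-ACC2, encodes an ACC synthase, the enzyme of the step that usually limits ethylene synthesis. ACS2 protein is known as a target of the stress-activated kinases MPK3 and MPK6, which stabilise it. Its peak lay at chr1:172937-175290 (TAIR10) and carried the label intergenic 5', the most frequent label of the list with 275 of 612 peaks (44.9%). Within that label ACS2 ranked 70, and on chromosome 1 it ranked 41 of 143. At 2354 bp it was the widest of the 3 peaks. Its reference position, 174696, lay off centre, 1759 bp from the start of the peak and 594 bp from its end. That offset from the midpoint, 582.5 bp, was exceeded by 139 of the 612 peaks. The peak ranked just above ACS2 was that of ULP1D, a SUMO protease gene (score 111.00, coding 5'), and the one just below that of AT5G35735 (score 109.44, UTR 5').

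JAZ8, listed by the authors as TIFY5A, encodes a jasmonate repressor. JAZ8 is known as an unusual member of its family, because it lacks the canonical degron that COI1 recognises and so resists hormone-triggered degradation, and because it carries an EAR motif that binds the co-repressor TOPLESS directly. Its peak lay at chr1:10595383-10596676 (TAIR10), also labelled intergenic 5', and ranked 63 of the 275 peaks with that label and 34 of 143 on chromosome 1. It was the narrowest of the 3 at 1294 bp, below the lower quartile of 1372 bp over all peaks. The reference position, 10596017, was 12.5 bp from the midpoint, so the JAZ8 peak was centred as closely as that of AFB2. Its score per kb was 91, which ranked 65. The peaks ranked just above and below it were both intergenic 5' as well, at the expansin gene EXP3 (118.02) and at AT5G02890 (117.23).

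Both of these neighbours in rank carry the mark TP in the authors' deposited table, which stands beside 22 of the 612 peaks (3.59%) in a column headed DE. None of AFB2, ACS2 and JAZ8 carries it. The sources used here do not say what the mark means, and nothing is read from its absence.

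Within 100 kb on either side AFB2 and ACS2 each had 2 other peaks. JAZ8 had none there, as was the case for 150 of the 612 peaks (24.5%), and 3 within 500 kb. Its nearest neighbours were 102.9 kb away, at AT1G29952 (score 84.32), and 311.7 kb away, at AT1G30755 (score 57.49). AFB2 had 2 other peaks within 100 kb. One was at CCB1 (score 92.01), a factor for assembling a photosynthetic cytochrome complex, and the other at AT3G26920 (score 50.53, close to the minimum of the list). The gaps were 54.5 and 48.7 kb. Within 500 kb AFB2 had 8 other peaks, of which the highest scored 147.05, which is 293.90 units below the AFB2 peak. ACS2, by contrast, did not stand out from its surroundings. The peak of AT1G01540, 23.5 kb away, scored 111.50, and that of AT1G01310, 51.6 kb away on the other side, scored 141.74. ACS2 lies near the end of chromosome 1, so its 500 kb window is cut short on 1 side, and it held 4 other peaks. The medians over all peaks were 1 other peak within 100 kb and 7 within 500 kb.

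**Figure D3:**
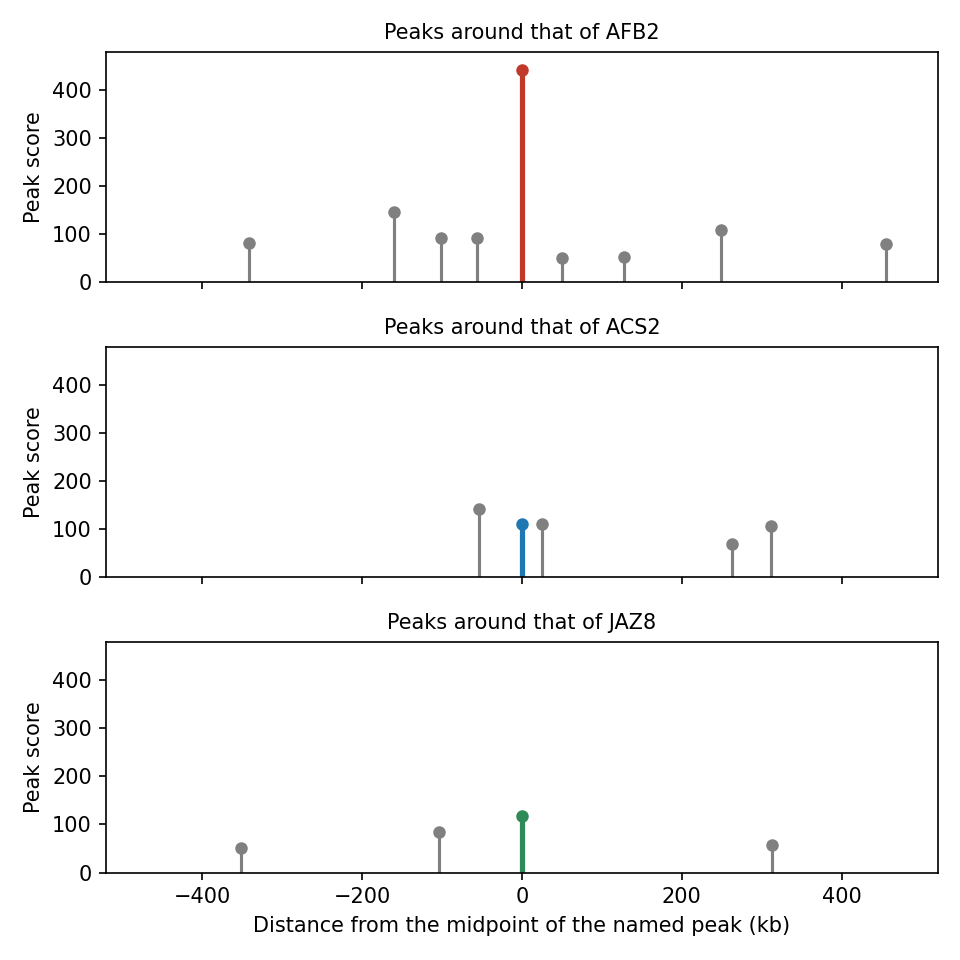
Peaks within 500 kb of the midpoints of the AFB2, ACS2 and JAZ8 peaks, with distance in kb on the horizontal axis and score on the vertical axis, the named peak in colour and all others in grey. AFB2 rises to 440.95 among peaks of at most 147.05, and JAZ8 has no other peak within 100 kb. ACS2 (110.85) stands between nearest peaks of higher score (141.74 and 111.50), with lower ones farther off (69.64 and 106.81).

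None of the genes directly beside the 3 in the order of the RefSeq gene table was assigned a peak of its own. AFB2 is followed in that order by MIR169i and MIR169j, genes for a microRNA that targets transcripts of NF-YA transcription factors, and preceded by the pseudogene AT3G26805. ACS2 stands between LEA14, which encodes a late embryogenesis abundant protein, and AT1G01490. JAZ8 stands between the long non-coding RNA gene AT1G06307 and AT1G30140. As only 2.06% of all nuclear protein-coding genes had a peak, the lack of one at so few neighbours says little. Each peak was assigned to 1 locus by the authors. A peak next to a gene does not show that ERF115 regulates it, and expression was not analysed here.

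Within each gene's own family the other members had no peak. AFB2 was the 1 auxin receptor with a peak among 6 genes, and TIR1, AFB1, AFB3, AFB4 and AFB5 had none. ACS2 was the 1 gene with a peak among 11 listed as ACC synthases, and JAZ8 the 1 among 13 listed as JAZ repressors. Of all 27444 nuclear protein-coding genes 564 had a peak, or 2.06%. In families of this size a single gene with a peak was fixed by the choice of AFB2, ACS2 and JAZ8, and it says nothing of the family as a whole.

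Further genes of each pathway were read from lists holding 88 auxin, 29 ethylene and 32 jasmonate genes, which do not take in every gene of a pathway. In the auxin list AFB2 was the 1 gene with a peak, or 1.14%. None of 29 Aux/IAA genes, 22 ARF genes, 14 genes of auxin synthesis, 12 of auxin transport and 5 of the SCF ligase and its activation had one. In the jasmonate list JAZ8 was the 1 gene, or 3.12%. The receptor gene COI1, the 4 genes for NINJA and the MYC factors, 12 genes of jasmonate synthesis and 2 of its breakdown had none. In the ethylene list 2 genes had a peak, or 6.90%, ACS2 among them. None of the 5 receptor genes had a peak, nor did any of 8 signalling genes, which include CTR1, EIN2 and EIN3. The ethylene list holds no ERF gene, and outside it ERF1 had a peak (score 78.98, intergenic 5'). Over all 149 genes the count was 4, or 2.68%, beside 2.06% of all genes. Since 3 of these 4 were chosen for having a peak, the shares of the lists are no measure of how often ERF115 was found at such genes. Among the 306 peaks with the highest scores all 4 remained (2.68%), where the share of all genes with a peak was 1.04%. At a score of at least 100 it was 3 (2.01%), namely AFB2, ACS2 and JAZ8, beside 0.656% of all genes. As these 3 were chosen with their scores known, the counts at higher scores are no such measure either. With genes next to one with a peak also counted, it was 12 of 149 (8.05%), beside 5.93% of all genes. As sequencing depth is unknown, the lack of a peak does not show that ERF115 was absent.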

How the data were processed

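ChIP DNA from 1 ERF115-HBH library and 1 mock library of PSB-D cells was sequenced. The submitters' processing notes name MACS 1.4.2, which calls peaks, the aligner BWA 0.5.9 and the TAIR10 build, beside Picard, SAMtools 0.1.18 and CASAVA 1.8.2, without parameters. TAIR10 is a Columbia genome, whereas the cells are Landsberg erecta. The deposited peak score is the authors' MACS value, and per the file headers the track names 2 library codes. It was used only to describe and rank peaks within the list. Values of the mock library and reads per peak were not analysed here, so the depth is unknown.

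Peak starts were written 1-based. Ranks, widths, distances and counts were computed in Python 3.11.15. The functions for ranks and for adjacent genes were tested on simulated data, and the other steps were not. No hypothesis test was run. The RefSeq table of assembly TAIR10.1 served for names and gene order, and held 600 of 608 loci with a peak and all 149 listed genes. The members and lists were chosen with earlier results of these data known. The genes named are AFB2, ACS2 and JAZ8, listed genes with a peak, and peaks next to the 3 in rank or on the chromosome. WRKY26, WRKY60, ERF1, genes beside the 3 in the table and those of the closing observations were chosen after their values were seen. The values of 1 further listed gene with a peak are not reported here. The alternatives were score thresholds, adjacent genes and other orders of rank.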

Additional observations from a re-analysis of the deposited data

How the results depend on the processing

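No paired analysis was possible because there was a single library of each kind, and for the same reason leaving out a replicate could not be tried. Ranks are given as a percent of the peaks ranked, counted from the highest, which are all 612 peaks unless a location label is named. AFB2 ranked at 0.49% by score, 0.163% by score divided by width, 68.1% by width and 1.56% by score among the 64 coding 3' peaks. JAZ8 ranked at 23.7% by score, 10.6% by score divided by width and 83.2% by width. ACS2 ranked at 26.6% by score, 39.4% by score divided by width, 38.2% by width and 25.5% by score among the 275 intergenic 5' peaks. With genes next to one with a peak also counted, 6 auxin and 3 jasmonate genes took the place of 1 each (6.82% and 9.38% of the lists), where the share of all genes also became higher, at 5.93% in place of 2.06%. With a score of at least 100, 1 ethylene gene was left of 2. The planned motif search, promoter alternatives and protein comparison were not run, since no sequence was used here.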

Other observations

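Outside the auxin list, a few genes named as small auxin up RNAs had peaks. They were chosen after the data had been looked at. Of 80 genes whose names in the RefSeq table mark them as small auxin up RNAs (SAUR), a family of early auxin-induced transcripts, 3 had a peak (3.75%, beside 2.06% of all nuclear protein-coding genes). SAUR36 (AT2G45210) scored 105.48 with a coding 3' label, at rank 178. That peak was 11391 bp wide, against a median of 1893.5 bp over all peaks. AT1G75590, also called SAUR52, scored 58.07, likewise coding 3', and carried the mark TP. AT5G01830, which the table calls SAUR21, had 2 peaks, intergenic 5' with a score of 97.11 and coding 3' with a score of 50.78. The genes were taken by name alone, and whether each encodes a SAUR was not checked. All 4 were among the 609 peaks, of 612, that scored below the 440.95 of AFB2.

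Some listed genes without a peak stood next to a gene with one, a rule that, together with genes that have a peak, takes in 5.93% of all nuclear protein-coding genes. IAA8, an Aux/IAA repressor gene, is adjacent to WAVH1, whose coding 3' peak scored 290.37. ARF12 is adjacent to AT1G34300 (score 122.71, mark TP), ARF4 to AT5G60460 (94.10) and ARF1 to AT1G59740 (89.31), each with an intergenic 5' peak. The SCF subunit gene ASK1 is adjacent to AT1G75960 (111.34, coding 5'). In the ethylene list, the ACC oxidase gene ACO1 is adjacent to KEA4 (119.74, intergenic 5'). In the jasmonate list these were LOX4, beside AT1G72510 (61.43), and JAR1, beside AT2G46360 (63.06). Whether such a peak bears on the listed gene or on its neighbour was not tested.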
